A study of Mus musculus with 12 samples.

Results

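Genes of the lysosome, the vacuolar proton pump (V-ATPase) and autophagy, 47 in number, were examined in bulk RNA-seq of sorted mouse small intestinal crypt cells. The members were chosen by function and were taken as the rows of the count table whose Ensembl identifier carries the symbol of a member. All 47 were found among 55414 genes in the table, and all 47 passed the filter on low counts that left 13057 genes for testing. They comprised 14 V-ATPase genes, 15 other lysosomal genes, the transcription factors Tfeb and Tfe3, and 16 autophagy genes. The table held 12 libraries in 4 groups of 3: Paneth cells and non-Paneth cells from WT mice, and Paneth cells and non-Paneth cells from GRKO mice, all of the strain C57BL/6J. In GRKO mice (GRvillinKO) the glucocorticoid receptor gene Nr3c1 was deleted in villin-expressing cells, so the deletion covered the intestinal epithelium as a whole and was not limited to Paneth cells. The sort gate for Paneth cells took CD24+ cKIT+ events with medium-to-high side scatter, negative for CD31, CD45 and TER119. The sources used here do not give the gate of the non-Paneth fraction, the sex of the mice, whether WT mice carried floxed Nr3c1, or the number of mice behind each library.

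Lysosomes are acidic organelles that break down material delivered by endocytosis and autophagy. The V-ATPase pumps protons into them: its cytosolic V1 sector hydrolyses ATP and its membrane V0 sector carries the protons. In autophagy a double membrane closes around cytoplasm, the conjugation enzymes attach Atg8 proteins (the LC3 and GABARAP families) to that membrane, and the vesicle then fuses with lysosomes. The transcription factors TFEB, TFE3 and MITF bind E-box elements in the promoters of many of these genes. In Paneth cells, which fill large granules with lysozyme and defensins, autophagy genes such as Atg5, Atg7 and Atg16l1 are known to be needed for normal granules.

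The E-box core is the palindrome CACGTG, and the extended form TCACGTGA reads the same on both strands and always includes that core. In the RefSeq promoter table of the build GRCm38.p6, which gives 250 bases before to 50 bases after each gene start, 36 of the 47 members matched by symbol, with 42 promoters. Atp6v1b2, Atp6v1c1, Atp6v1g1, Atp6v1h, Ctsb, Ctsh, Npc1, Becn1, Atg12, Atg16l1 and Map1lc3a had no entry. CACGTG stood in 14 of these 42 promoters (33.3%), against 7.15% of all 32851 promoters. TCACGTGA stood in 7 of 42 (16.7%), those of Atg3, Atp6v0d1, Atp6v0e, Atp6v1a, Ctsd, Gla and Mcoln1, against 0.974% of all promoters. The form with a further G before and C after it stood in 0 of 42 (0.326% of all promoters), as did the consensus glucocorticoid response element (0.00913% of all). A match is a description of letters in this window and not evidence of binding. Stretches of 120 bases from 5 of the promoters are shown here since they carry the extended element in full upstream of the start. Those of Ctsd (chr7:142387847-142387966, minus strand), Mcoln1 (chr8:3500399-3500518, plus strand), Atp6v1a (chr16:44139312-44139431, minus strand), Atg3 (chr16:45158709-45158828, plus strand) and Gla (chrX:134601136-134601255, minus strand) read 5′ to 3′ as follows, with TCACGTGA in capitals:
Ctsd: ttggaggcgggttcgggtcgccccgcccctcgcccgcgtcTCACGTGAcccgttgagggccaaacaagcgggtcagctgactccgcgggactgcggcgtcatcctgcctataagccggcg
Mcoln1: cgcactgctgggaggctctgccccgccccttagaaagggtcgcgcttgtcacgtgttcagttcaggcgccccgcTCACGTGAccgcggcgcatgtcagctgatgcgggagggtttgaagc
Atp6v1a: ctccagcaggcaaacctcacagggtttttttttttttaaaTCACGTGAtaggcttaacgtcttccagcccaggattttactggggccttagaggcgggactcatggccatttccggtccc
Atg3: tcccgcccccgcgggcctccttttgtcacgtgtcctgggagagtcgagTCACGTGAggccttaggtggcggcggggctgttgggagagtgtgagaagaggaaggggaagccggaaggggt
Gla: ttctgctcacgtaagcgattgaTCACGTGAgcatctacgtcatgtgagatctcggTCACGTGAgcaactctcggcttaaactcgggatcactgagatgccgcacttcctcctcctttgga

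In the Gla promoter the element occurred at 228 and again at 195 bases upstream of the start. It lay 99 bases upstream in Ctsd, 132 in Atp6v1a, 72 in Atg3 and 46 in Mcoln1. The windows of Mcoln1 and Atg3 each held a further CACGTG in lower case.

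Each library held 11126297 to 15910292 counts. The deleted gene Nr3c1 followed the genotype in the sample titles, with 40.8 to 54.1 TMM-scaled CPM in WT Paneth cells against 5.82 to 15.4 in GRKO Paneth cells, and 110.4 to 131 in WT non-Paneth cells against 13.1 to 24.5 in GRKO non-Paneth cells. A second genotype field of the labels contradicts these titles, and the titles were used. TMM-scaled CPM are read counts scaled to library size (CPM), with the library total first rescaled by edgeR's trimmed mean of M values (TMM). They are the scale of every level given unless CPM per kilobase is named. The 6 Paneth markers summed to 418574 to 646124 in the Paneth libraries and to 357 to 1116 in the others. Lyz1 and the defensin genes took 37.4% to 46.9% of all counts in Paneth libraries. If libraries were scaled to their totals only, the median log2 difference of all 13057 genes became -0.68 between the WT fractions, -1.05 between the GRKO fractions, 0.31 between the genotypes in non-Paneth cells and -0.28 for the interaction, where TMM scaling left 0.01, -0.08, 0.02 and -0.01. Differences below are therefore relative to the bulk of genes, and a fold change relative to total RNA would be shifted by these amounts. WT replicate 2 had Xist at 127 CPM in Paneth and 257 CPM in non-Paneth cells against at most 0.52 in all other libraries. Leaving out both of its libraries was therefore 1 of the alternatives, and 4 members (Gla, Lamp2, Atp6ap1 and Tfe3) lie on the X chromosome. Macrophage and other immune markers summed to 5.26 to 38.1 over 8 genes, and stromal and endothelial markers to at most 0.7 over 5 genes. Csf1r had no counts in either Paneth group. Ptprc measured 19.0, 28.7 and 2.08 in GRKO Paneth replicates 1 to 3, and 0.285, 4.08 and 5.68 in WT Paneth cells. In non-Paneth cells it measured 3.31, 6.08 and 0.302 in GRKO and 0.16 to 0.407 in WT mice. The GRKO Paneth values thus overlapped those of WT Paneth and of GRKO non-Paneth cells. Lyz2 measured 9.7 to 13.7 in WT Paneth against 0.0534 to 0.291 in WT non-Paneth cells. Itgam went the other way, at 2.01 to 2.28 against 3.5 to 4.53. In RNA of bulk fractions, fewer cells of a type and less RNA per cell cannot be told apart.

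Per kilobase of exon, Gabarap and Psap were the most abundant members in WT Paneth cells, at 76.1 and 64.9 CPM per kilobase. Gabarap is an Atg8 protein and Psap is the precursor of the saposins, the cofactors of sphingolipid breakdown. Atp6v1f (44.6), the lysosomal membrane glycoprotein Lamp1 (44.2), the protease Ctsb (32.6), Atp6v0b (29.9) and the protease Ctsd (28.1) came next. In WT non-Paneth cells Psap (138) and Gabarap (127) again led, followed by Lamp1 (92.1) and Ctsb (77.1). The lowest members in WT Paneth cells were Npc1 (1.05), Tfeb (1.08), the lysosomal calcium channel Mcoln1 (1.43) and Atg16l1 (1.52). The 47 members together took 0.272% to 0.33% of counts in Paneth libraries and 0.457% to 0.472% in non-Paneth libraries. After TMM scaling their sums were 3294 to 4195 in WT Paneth, 3780 to 4122 in GRKO Paneth, 3764 to 3935 in WT non-Paneth and 3092 to 3189 in GRKO non-Paneth cells, so that only the GRKO non-Paneth libraries lay below all 3 WT libraries of the same fraction.

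WT Paneth cells were compared with WT non-Paneth cells to find which members distinguished the Paneth fraction. The members split in both directions: the autophagy genes Gabarapl1, Atg7 and Wipi1, the protease Ctsl and the enzyme Glb1 were at least 2-fold higher in Paneth cells, while Atp6v0a1, Npc1 and Atg9a were at least 2-fold lower. Of 47 members 13 were higher (27.7%, against 24.0% of all genes tested) and 12 were lower (25.5%, against 26.7%), so the shares of the members were close to those of all genes. Their median log2 fold change was 0.02, against 0.01 for all genes. The same comparison in GRKO mice rested on 6 other libraries. There 22 members were higher (46.8%, against 18.0% of all genes) and 4 were lower (8.51%, against 21.2%), with a median log2 fold change of 0.29 against -0.08 for all genes. Higher in both genotypes were 12 members, which were 12 of the 13 in WT and 12 of the 22 in GRKO mice: Atg7, Atp6v1b2, Atp6v1f, Ctsl, Gaa, Gabarapl1, Glb1, Lamp2, Map1lc3b, Sqstm1, Ulk1 and Wipi1. Lower in both were Ctsb, Npc1, Psap and Tfeb, all 4 of those lower in GRKO mice and 4 of the 12 in WT mice. No member was called in opposite directions. The share of all genes called alike in both genotypes is not given here, so this overlap is not shown to be particular to the members. The lower calls in GRKO mice were the less stable ones: 0 of the 4 remained without GRKO non-Paneth replicate 1, and Ctsb, Npc1 and Psap were lost in 14, 10 and 10 of 21 alternatives. On library totals, 7 of the 13 and 8 of the 22 kept a positive sign. All of the 13 and the 22 stayed above the median of all genes. That scaling shifts members and median nearly alike, so this is no check. Markers of other cell types also separated the fractions. In WT Paneth against WT non-Paneth cells 4 of 4 tested tuft and 5 of 5 stem markers were higher, and 7 of 7 enterocyte and 5 of 5 enteroendocrine markers lower. In GRKO mice 4 of 4 tuft and 2 of 5 stem markers were higher, and 6 of 7 enterocyte, 5 of 5 enteroendocrine and 5 of 5 proliferation markers lower. Summed tuft markers ran from 159 to 436 in WT Paneth against 3.12 to 8.77 in WT non-Paneth libraries, and from 404 to 1077 against 62.8 to 247 in GRKO mice. Summed enterocyte markers ran from 574 to 2110 against 22290 to 24665 in WT and from 737 to 996 against 4497 to 5586 in GRKO mice. The part of these cell types in the members' differences was not tested.

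**Figure D1:**
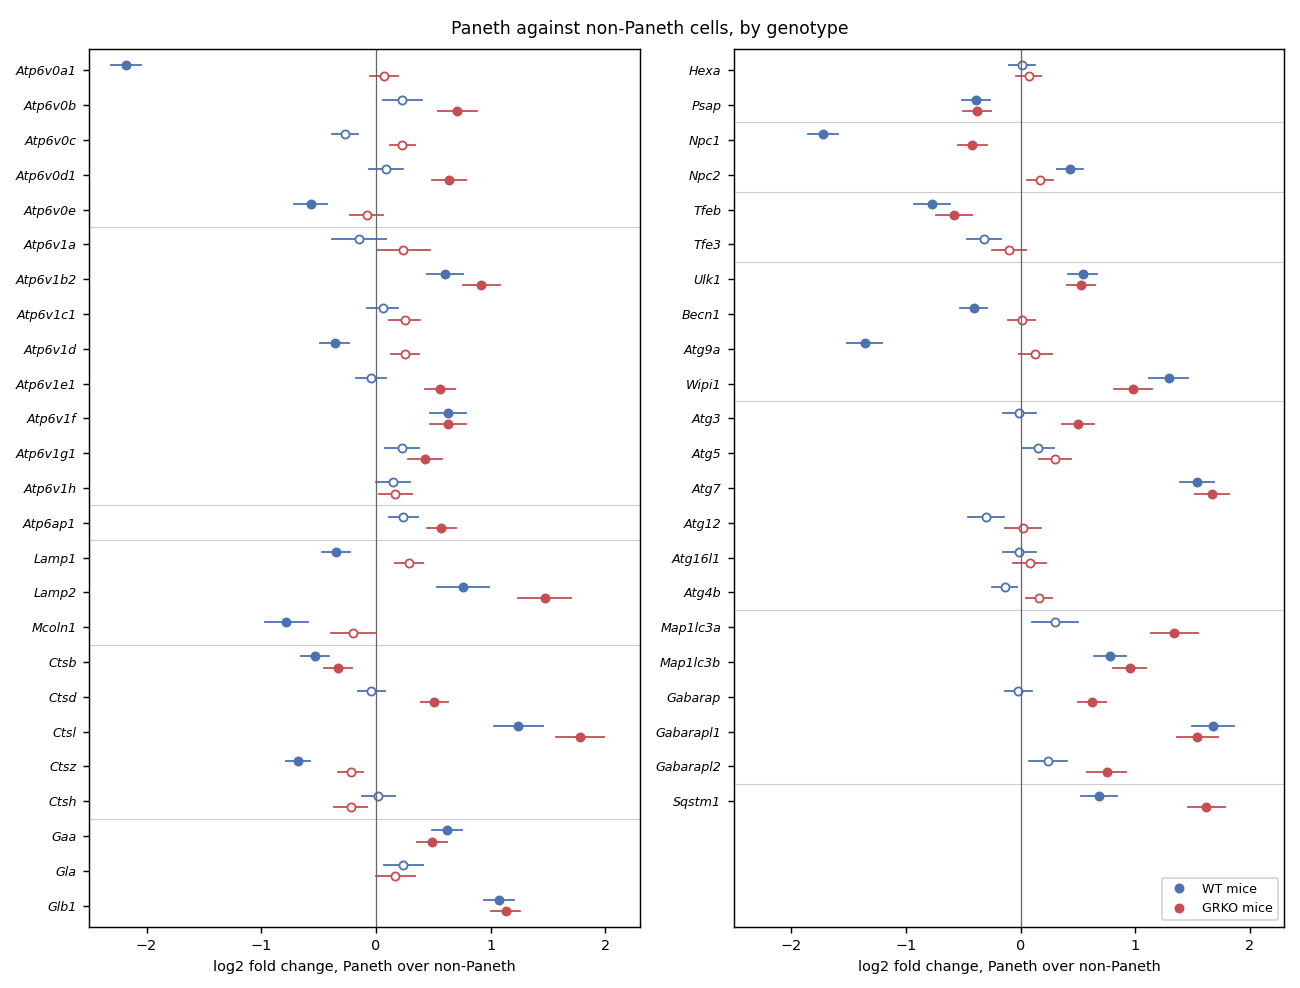
Log2 fold change of Paneth over non-Paneth cells for all 47 members in WT mice (blue) and GRKO mice (red), with bars of 1 standard error, filled where the edgeR adjusted p is under 0.05 and separated by grey lines between functional groups. Gabarapl1, Atg7 and Ctsl lie to the right in both genotypes, and Atp6v0a1 and Atg9a lie far left in WT mice (-2.18 and -1.36) and near 0 in GRKO mice (0.07 and 0.13).

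The Atg8 family, which marks the autophagosome membrane and recruits cargo receptors, included the largest increase of any member in WT mice. Gabarapl1 (ENSMUSG00000030161) measured 32.5, 51.0 and 50.3 in WT Paneth replicates 1 to 3 and 12.8, 16.6 and 12.1 in WT non-Paneth cells. In GRKO mice it measured 43.1, 34.1 and 40.3 in Paneth and 12.1, 13.5 and 14.6 in non-Paneth cells. The fractions did not overlap in either genotype. Its log2 fold change was 1.68 ± 0.182 (SE, edgeR adjusted p = 1.86e-06) in WT and 1.54 ± 0.18 (edgeR adjusted p = 8.68e-06) in GRKO mice. Map1lc3b, which encodes LC3B, was higher by 0.78 ± 0.139 in WT (edgeR adjusted p = 0.00025) and by 0.95 ± 0.14 in GRKO mice (7.45e-05), although its sign in GRKO mice turned to -0.03 on library totals. In WT mice 2 of the 5 family members were higher (against 24.0% of all genes), and in GRKO mice all 5 were (against 18.0%), with Map1lc3a, Gabarap and Gabarapl2 added, of which Map1lc3a alone kept its sign there on library totals. Map1lc3a measured 12.8, 11.3 and 8.89 in GRKO Paneth cells and 4.33, 4.82 and 3.79 in GRKO non-Paneth cells (log2 fold change 1.34 ± 0.207, edgeR adjusted p = 0.000113). In WT mice it measured 10.5, 12.2 and 8.04 against 9.86, 7.9 and 7.32, values that overlapped (0.30 ± 0.204, edgeR adjusted p = 0.238). For Gabarapl2, 11.5% of 100-base exonic windows mapped to more than 1 place, so its counts are less certain than those of its relatives.

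Of the 6 conjugation enzymes only Atg7 passed the test between the WT fractions. ATG7 is the E1-like enzyme that activates both ATG12 and the Atg8 proteins. It measured 39.6, 53.1 and 51.6 in WT Paneth cells against 15.8, 15.6 and 18.2 in WT non-Paneth cells. The GRKO libraries gave 47.8, 55.2 and 66.6 against 17.6, 17.2 and 18.5. Atg7 libraries of the fractions lay far apart in both genotypes, with log2 fold changes of 1.54 ± 0.149 (edgeR adjusted p = 5.81e-07) and 1.67 ± 0.147 (5.2e-07). Atg3, the E2-like enzyme that hands Atg8 proteins to the lipid, was higher in GRKO Paneth cells only by its call (0.50 ± 0.14, edgeR adjusted p = 0.0103, against -0.01 ± 0.141 in WT, adjusted p = 0.954), its sign in GRKO mice turned to -0.48 on library totals, and the test of the difference between genotypes gave an edgeR adjusted p of 0.0856. The other 4, Atg5, Atg12, Atg16l1 and the protease Atg4b, passed the test in neither genotype, with log2 fold changes of -0.30 to 0.30. Atg5 measured 38.4, 53.7 and 50.9 in WT Paneth against 39.1, 43.2 and 46.6 in WT non-Paneth cells, and Atg16l1 measured 28.9, 28.8 and 23.7 against 25.4 to 28.3. Both of these genes with a known role in Paneth granules thus had overlapping levels in the WT fractions.

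The initiation genes moved apart. Wipi1, which binds phosphoinositides on the forming membrane, measured 25.4, 34.1 and 32.2 in WT Paneth cells against 12.7, 12.3 and 12.4 in WT non-Paneth cells (log2 fold change 1.29 ± 0.171, edgeR adjusted p = 1.51e-05). Ulk1, the kinase that starts autophagy, was higher by 0.54 ± 0.123 (edgeR adjusted p = 0.0018) in WT and 0.53 ± 0.122 (0.00297) in GRKO mice, and both signs turned negative on library totals (-0.15 and -0.44). Atg9a, a membrane-spanning lipid scramblase, was lower in WT Paneth cells. It measured 13.9, 19.3 and 18.9 there against 39.3, 52.0 and 42.0 in WT non-Paneth cells (log2 fold change -1.36 ± 0.152, edgeR adjusted p = 2.61e-06). One limit on Atg9a is that 25.2% of its exonic bases overlap the gene model Gm29253 on the same strand. Becn1, a subunit of the phosphoinositide kinase complex, was lower by -0.41 ± 0.118 (edgeR adjusted p = 0.00833) in WT mice. The cargo receptor Sqstm1 (p62) measured 128, 221 and 195 in WT Paneth cells, with replicate 1 the lowest, against 107, 119 and 111 in WT non-Paneth cells. Its log2 fold change was 0.68 ± 0.157 (edgeR adjusted p = 0.00189) in WT, where the sign turned to -0.04 on library totals, and 1.62 ± 0.159 (1.63e-06) in GRKO mice.

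**Figure D2:**
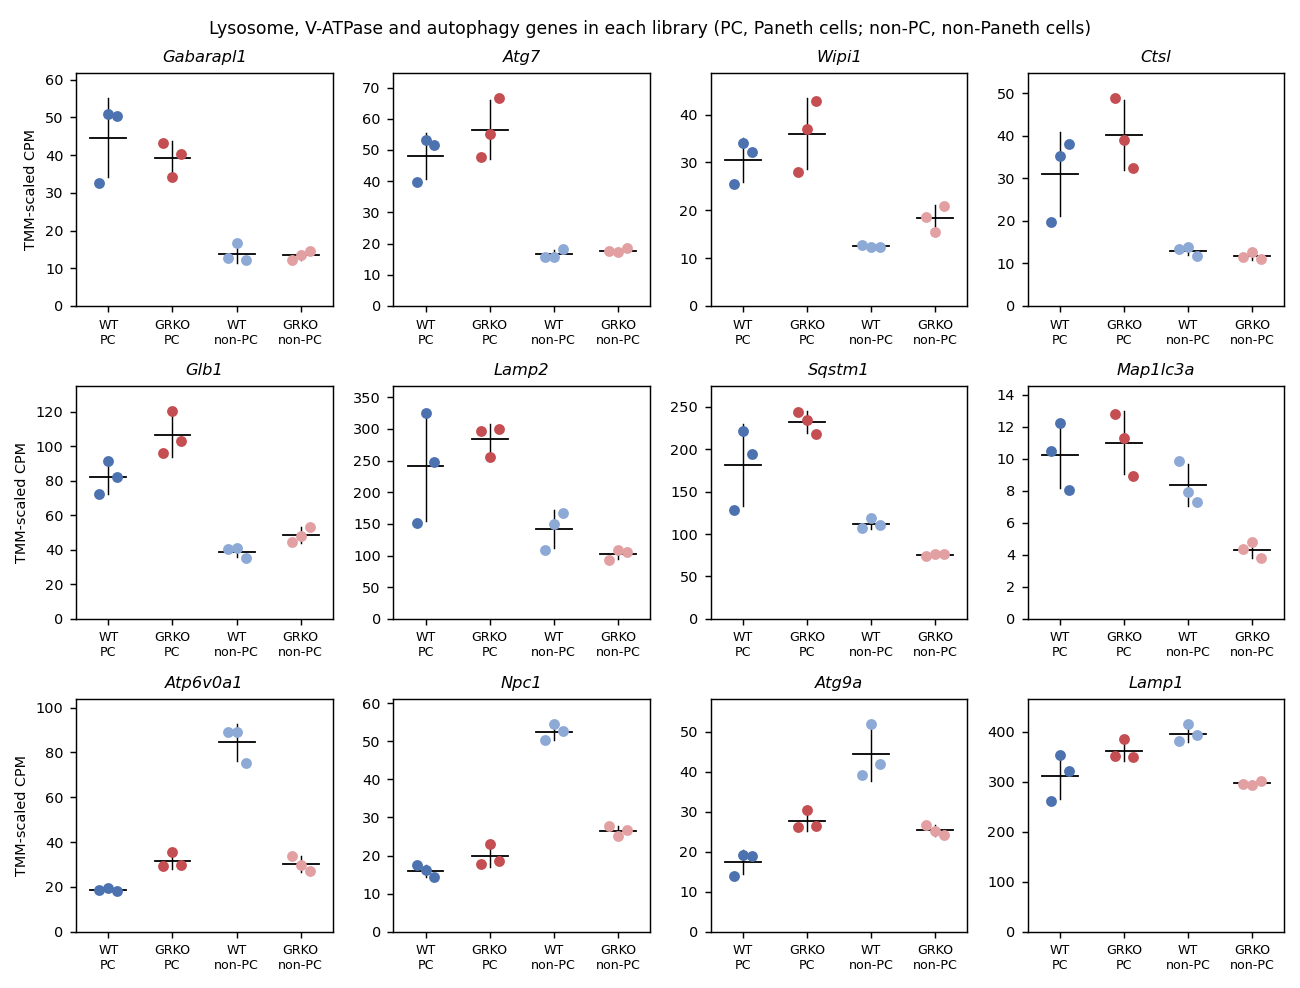
TMM-scaled CPM of 12 members in each of the 12 libraries (points), with the mean of 3 as a line and the standard deviation as a vertical bar. Paneth libraries lie above non-Paneth libraries for Gabarapl1, Atg7, Wipi1, Ctsl, Glb1 and Sqstm1, and for Atp6v0a1 the WT non-Paneth libraries (75.1 to 89.3) lie above all others (18.3 to 35.5).

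Of the 14 V-ATPase genes, 2 were higher and 3 lower in WT Paneth cells, and 7 were higher and 0 lower in GRKO Paneth cells. Over all genes the shares were 24.0% and 26.7% in WT and 18.0% and 21.2% in GRKO mice. DESeq2 and an unadjusted edgeR p under 0.05 gave 0 lower V-ATPase genes in GRKO mice as well, but both scale to the bulk of genes. On library totals all of those 7 turned negative in GRKO mice. Genes such as Atp6v0a1 (-0.90, edgeR adjusted p = 7.31e-05) and Atp6v0c (-0.74, 0.000131) were called lower on that scale. The largest difference of any member was that of Atp6v0a1 (ENSMUSG00000019302), which encodes one of the alternative a subunits of the V0 sector. It measured 18.4, 19.3 and 18.3 in WT Paneth cells and 89.3, 89.3 and 75.1 in WT non-Paneth cells. Each WT non-Paneth library lay far above every WT Paneth library, and the log2 fold change was -2.18 ± 0.131 (edgeR adjusted p = 7.04e-09). In GRKO mice the fractions overlapped, at 29.5, 35.5 and 29.7 against 33.9, 29.6 and 27.1 (0.07 ± 0.125, edgeR adjusted p = 0.716). Its paralog Atp6v0a2, from a wider list of other lysosome and autophagy genes, was likewise lower in WT Paneth cells, with 49.0, 81.6 and 68.4 against 209, 235 and 246 (-1.80 ± 0.169, edgeR adjusted p = 4.35e-07). A further a subunit gene, Tcirg1, was not called (-0.24 ± 0.308, adjusted p = 0.556). It was named after its values were seen, and its WT Paneth libraries spread from 22.6 to 67.5.

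Atp6v1b2, the catalytic-core B subunit of V1, measured 89.8, 152 and 146 in WT Paneth cells against 83.5, 87.9 and 84.0 in WT non-Paneth cells. Its log2 fold change was 0.60 ± 0.159 (edgeR adjusted p = 0.00521) in WT, a call that was lost without both WT libraries of replicate 2, and 0.92 ± 0.159 (0.000301) in GRKO mice. Atp6v1f was higher by 0.63 ± 0.158 in both genotypes (edgeR adjusted p = 0.00355 and 0.00521). On library totals these 2 genes turned to -0.12 and -0.07 in WT and to -0.05 and -0.36 in GRKO mice. The A subunit gene Atp6v1a spread widely among WT Paneth libraries, with 26.0 in replicate 1 and 56.8 and 63.5 in the others, and passed the test in neither genotype. In WT mice Atp6v0e (-0.57 ± 0.142, edgeR adjusted p = 0.00356) and Atp6v1d (-0.36 ± 0.125, 0.0266) were lower. Only GRKO mice gave calls for Atp6v0b, Atp6v0d1, Atp6v1e1, Atp6v1g1 and the accessory subunit Atp6ap1, by 0.43 to 0.71 on the log2 scale. The signs of these 5 turned on library totals. In the test of the difference between genotypes, 1 of these 5 passed, Atp6v1e1 (0.61 ± 0.184, edgeR adjusted p = 0.0335). Atp6v0c, the proton-carrying ring subunit, was called in neither, and 15.3% of its exonic windows were not unique.

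Among the lysosomal proteases and glycosidases, Ctsl and Glb1 stood out. Ctsl, which encodes cathepsin L, measured 19.7, 35.4 and 38.0 in WT Paneth cells against 13.4, 13.9 and 11.8 in WT non-Paneth cells. In GRKO mice it measured 48.9, 39.1 and 32.5 against 11.5, 12.6 and 11.0. The fractions did not overlap, and the log2 fold changes were 1.24 ± 0.213 (edgeR adjusted p = 0.000184) and 1.78 ± 0.212 (1.15e-05). Glb1, the lysosomal beta-galactosidase, was higher by 1.07 ± 0.131 in WT (edgeR adjusted p = 6.26e-06) and by 1.13 ± 0.129 in GRKO mice (6.85e-06). Gaa, the acid alpha-glucosidase that breaks down glycogen, was higher by 0.62 ± 0.131 and 0.49 ± 0.128, with signs that turned on library totals to -0.08 and -0.46. The cathepsin genes Ctsb and Ctsz were lower in WT Paneth cells, by -0.53 ± 0.119 (edgeR adjusted p = 0.00155) and -0.68 ± 0.107 (8.33e-05). Ctsb measured 301, 371 and 340.4 there against 462, 503 and 501. Psap was lower by -0.39 ± 0.121 and -0.38 ± 0.121 (edgeR adjusted p = 0.0137 and 0.0199), calls that 8 and 10 of 21 alternatives lost. Ctsh, Gla and Hexa passed in neither genotype. Ctsd was higher in GRKO Paneth cells (0.51 ± 0.118, edgeR adjusted p = 0.00286, -0.46 on library totals) and not in WT (-0.04 ± 0.118, 0.806), and 29.2% of its exonic bases overlap the same-strand model Gm49369.

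The cholesterol egress genes went opposite ways in WT mice. Npc1 (ENSMUSG00000024413), the membrane transporter that takes cholesterol out of lysosomes, measured 17.4, 16.1 and 14.4 in WT Paneth cells against 50.4, 54.5 and 52.6 in WT non-Paneth cells. Its log2 fold change was -1.72 ± 0.13 (edgeR adjusted p = 4.97e-08), and in GRKO mice -0.42 ± 0.127 (0.0163). Npc2, the soluble protein that hands cholesterol to it, was higher in WT Paneth cells by 0.43 ± 0.113 (edgeR adjusted p = 0.00474, -0.27 on library totals). Of the membrane glycoproteins, Lamp2 was higher and Lamp1 lower in WT Paneth cells. Lamp2 measured 152, 325 and 248 against 109, 149.9 and 167, and these libraries overlapped (0.76 ± 0.225, edgeR adjusted p = 0.0116). That call was lost without WT Paneth replicate 2. The Lamp1 difference of -0.35 ± 0.122 (edgeR adjusted p = 0.0265) was lost in 10 of 21 alternatives. Mcoln1 was lower by -0.78 ± 0.189 (edgeR adjusted p = 0.00288) in WT mice.

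Tfeb, the master transcription factor of lysosomal genes, was lower in Paneth cells of both genotypes. It measured 11.8, 8.16 and 9.34 in WT Paneth cells against 17.7, 15.7 and 16.7 in WT non-Paneth cells (log2 fold change -0.77 ± 0.159, edgeR adjusted p = 0.000869). The GRKO difference was -0.58 ± 0.156 (edgeR adjusted p = 0.00826), a call that was lost without GRKO non-Paneth replicate 1. Tfe3 was not called (-0.32 ± 0.15, adjusted p = 0.0861 in WT). Their relative Mitf, of the wider list, was near the limit of detection but went the other way: 1.04, 1.98 and 1.3 in WT Paneth cells against 0, 0.116 and 0.16 in WT non-Paneth cells (edgeR adjusted p = 0.000247). The 7 members with TCACGTGA in their promoter did not move as 1 group. In Paneth against non-Paneth cells, Atp6v0e and Mcoln1 were lower in WT mice, Atg3, Atp6v0d1 and Ctsd were higher in GRKO mice, and Atp6v1a and Gla were called in neither genotype.

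GRKO Paneth cells were compared with WT Paneth cells to ask what loss of the receptor changed within that fraction. Only Atp6v0a1 and Atg9a passed the test. Both were higher in GRKO cells, so that 2 of 47 members were called higher (4.26%, against 1.70% of all genes) and 0 lower (against 1.52%). At an unadjusted p under 0.05 there were 9 higher and 2 lower members, and DESeq2 called 3 higher and 2 lower. Atp6v0a1 measured 18.4, 19.3 and 18.3 in WT and 29.5, 35.5 and 29.7 in GRKO Paneth cells (log2 fold change 0.76 ± 0.132, edgeR adjusted p = 0.0347). Atg9a measured 13.9, 19.3 and 18.9 in WT and 26.1, 30.5 and 26.5 in GRKO Paneth cells (0.68 ± 0.154, edgeR adjusted p = 0.0448). The genotypes did not overlap for either gene. Both calls depended on single libraries (GRKO Paneth replicate 2 and WT Paneth replicate 1, each left out in turn). They were also lost with a replicate block, which here matches numbers across genotypes although nothing shows that these are pairs. In all they were lost in 9 of 21 alternatives for Atp6v0a1 and in 15 of 21 for Atg9a. The median log2 fold change of the members was 0.10, against 0.03 for all genes. Among the members not called, Ctsh (-0.48 ± 0.146, adjusted p = 0.0681) and Glb1 (0.38 ± 0.129, adjusted p = 0.088) had the lowest adjusted p. Markers of tuft cells summed to 159 to 436 in WT and 404 to 1077 in GRKO Paneth libraries, and stem cell markers to 8189 to 8552 in WT and 4393 to 6387 in GRKO Paneth libraries. Their part in these results was not tested.

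The same genotype comparison in non-Paneth cells gave a broader result. Of 47 members, 16 were lower in GRKO cells (34.0%, against 19.8% of all genes) and 2 were higher (4.26%, against 17.5%), with a median log2 fold change of -0.25 against 0.02 for all genes. The largest decreases were those of Atp6v0a1, Npc1 and Map1lc3a. By role, 4 of 5 Atg8 genes, 3 of 5 V0 genes, 1 of 8 V1 genes, 2 of 3 lysosomal membrane genes, 2 of 5 cathepsins and the cargo receptor Sqstm1 fell, and 0 of 6 conjugation enzymes did by edgeR, with 2 lower at an unadjusted p under 0.05 and 2 by DESeq2. On library totals the median was 0.04 for the members and 0.31 for all genes, and 8 members were called lower. The 16 members that fell all kept a negative sign there. That shift was smaller than their decreases, so the kept signs are no check.

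**Figure D3:**
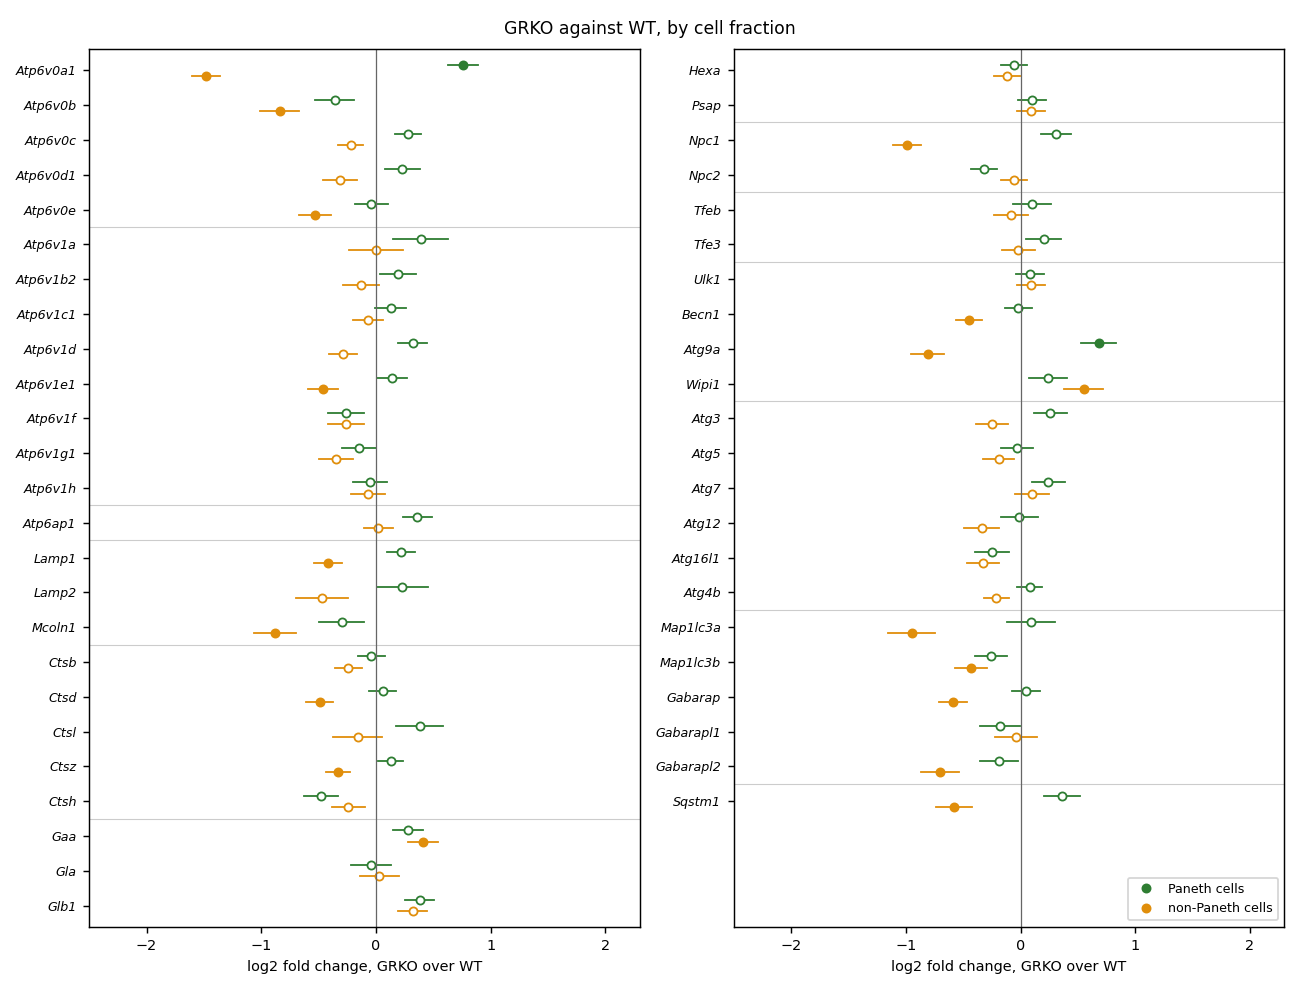
Log2 fold change of GRKO over WT for all 47 members in Paneth cells (green) and non-Paneth cells (orange), with bars of 1 standard error, filled where the edgeR adjusted p is under 0.05 and separated by grey lines between functional groups. The non-Paneth points lie mostly left of 0, down to -1.48 for Atp6v0a1, and the Paneth points mostly right of it, with 2 filled.

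Atp6v0a1 again led, falling from 89.3, 89.3 and 75.1 in WT to 33.9, 29.6 and 27.1 in GRKO non-Paneth cells (log2 fold change -1.48 ± 0.124, edgeR adjusted p = 3.1e-06). Npc1 fell from 50.4, 54.5 and 52.6 to 27.7, 25.1 and 26.7 (-0.99 ± 0.122, edgeR adjusted p = 4.4e-05). For both genes the groups lay far apart. The WT non-Paneth libraries enter this comparison and that of the WT fractions alike. In the Atg8 family, Map1lc3a fell from 9.86, 7.9 and 7.32 to 4.33, 4.82 and 3.79 (-0.95 ± 0.203, edgeR adjusted p = 0.00217). Gabarap, the most abundant of the family per kilobase, fell from 230.3, 245 and 232 to 158, 158 and 154 (-0.59 ± 0.121, edgeR adjusted p = 0.0016). Gabarapl2 (-0.70 ± 0.164, edgeR adjusted p = 0.0039) and Map1lc3b (-0.43 ± 0.139, 0.0243) fell as well, and Gabarapl1 measured 12.8, 16.6 and 12.1 in WT and 12.1, 13.5 and 14.6 in GRKO cells, values that overlapped. Sqstm1, whose protein binds these Atg8 proteins, fell from 107, 119 and 111 to 74.2, 75.9 and 76.2 (-0.58 ± 0.156, edgeR adjusted p = 0.00916).

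Of the remaining decreases, Mcoln1 (-0.88 ± 0.183, edgeR adjusted p = 0.00183), Atp6v0b (-0.84 ± 0.17, 0.00153) and Atg9a (-0.81 ± 0.144, 0.000593) were the largest. Mcoln1 fell from 27.9, 24.2 and 23.9 to 14.4, 13.0 and 14.0. Smaller decreases of -0.33 to -0.53 on the log2 scale were found for Atp6v0e, Ctsd, Atp6v1e1, Becn1, Lamp1 and Ctsz. Those of Atp6v1e1, Lamp1 and Map1lc3b were lost without both WT libraries of replicate 2, that of Map1lc3b also without GRKO non-Paneth replicate 1, and that of Ctsz without GRKO non-Paneth replicate 2. Exons of Atp6v0b, Lamp1, Becn1 and Atp6v1e1 overlap genes on the opposite strand over 40.5% to 55.1% of their length, and although the library kit was stranded, no source used here gives the strand setting of the counting. The members that rose were Wipi1, from 12.7, 12.3 and 12.4 to 18.5, 15.5 and 20.9 (0.55 ± 0.168, edgeR adjusted p = 0.0183), and Gaa, from 23.0, 24.0 and 24.1 to 31.4, 27.8 and 34.8 (0.41 ± 0.129, edgeR adjusted p = 0.0224). Both increases were lost in 7 of 21 alternatives, among them each WT non-Paneth library left out in turn and GRKO non-Paneth replicates 1 and 3. Tfeb and Tfe3 did not pass the test, at -0.08 ± 0.149 and -0.02 ± 0.145.

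The makeup of the non-Paneth fraction also differed between the genotypes by the marker lists. Enterocyte markers summed to 22290 to 24665 in WT and to 4497 to 5586 in GRKO non-Paneth libraries, with 3 of 7 called lower and a median log2 fold change of -2.31. Tuft markers summed to 3.12 to 8.77 in WT, where Il25 had no counts, and to 62.8 to 247 in GRKO non-Paneth libraries. Proliferation markers summed to 669 to 754 and to 1119 to 1185. Stem markers summed to 3784 to 5079 and to 5017 to 6384, with 4 of 5 called higher and a median log2 fold change of 0.56. Goblet markers, at 6909 to 14736 and 5838 to 8040, overlapped in their sums, with 2 of 6 called lower, 0 higher and a median log2 fold change of -0.82. These values moved with the genotype in the same libraries as the member genes, and their part in the members' decreases was not tested.

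**Figure D4:**
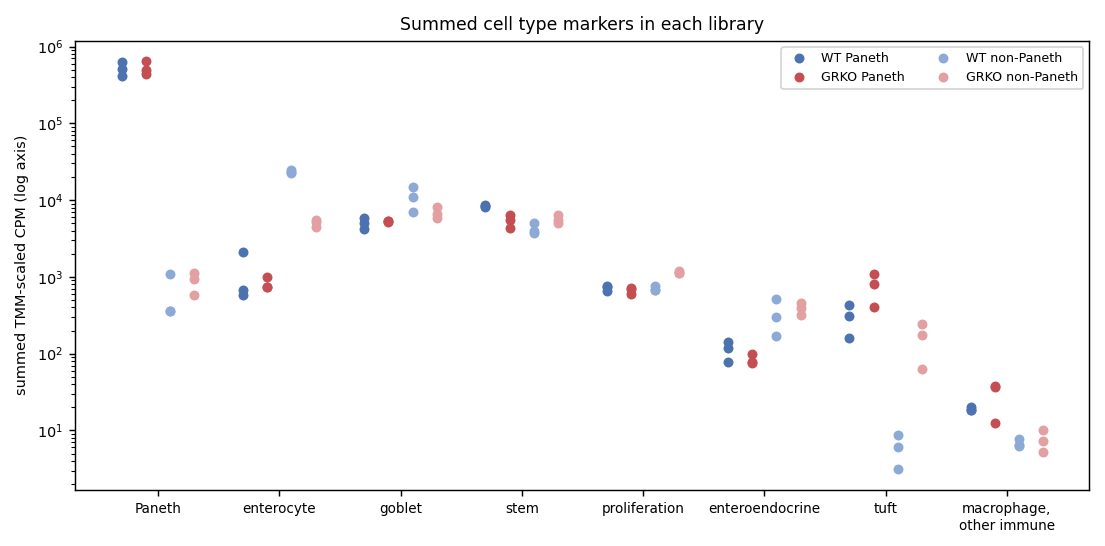
Summed TMM-scaled CPM of cell type marker lists on a log axis, with 1 point for each library in the 4 groups. The enterocyte sum of WT non-Paneth libraries (22290 to 24665) lies above that of GRKO non-Paneth libraries (4497 to 5586), and the tuft sum of WT non-Paneth libraries (3.12 to 8.77) lies below that of all other groups.

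The interaction term tested whether the genotype effect differed between the fractions, which is the same as whether the difference between fractions depended on genotype. It was positive for every member that passed: 12 of 47 (25.5%, against 11.5% of all genes) were called higher, meaning a more positive GRKO effect in Paneth than in non-Paneth cells, and 0 were called lower (against 7.28%), also at an unadjusted p under 0.05 and by DESeq2. At that unadjusted level 19 members were higher, and DESeq2 called 15. Both of these scale to the bulk of genes. The median log2 interaction was 0.32, against -0.01 for all genes. With libraries scaled to their totals, 4 members were called higher and 1 lower, and the medians were 0.07 and -0.28. The values that follow are on the TMM scale. Atp6v0a1 was the largest, at 2.24 ± 0.18 (edgeR adjusted p = 1e-05), made up of 0.76 in Paneth and -1.48 in non-Paneth cells. Atg9a had 1.49 ± 0.211 (edgeR adjusted p = 0.000494), from 0.68 and -0.81. Npc1 had 1.30 ± 0.181 (edgeR adjusted p = 0.000471), from 0.31 and -0.99. These 3 were called in every one of 20 alternatives. The others were Map1lc3a (1.04), Sqstm1 (0.94), Gabarap (0.64), Lamp1 (0.63), Atp6v1d (0.61), Atp6v1e1 (0.61), Ctsd (0.55), Atp6v0c (0.50) and Ctsz (0.46). The count fell to 7 without GRKO Paneth replicate 2 and to 6 without GRKO non-Paneth replicate 3. For the 4 members that were at least 2-fold higher in Paneth cells of both genotypes the interaction did not pass the test: it was 0.13 ± 0.205 for Atg7, -0.14 ± 0.252 for Gabarapl1, 0.06 ± 0.182 for Glb1 and 0.53 ± 0.296 for Ctsl, with edgeR adjusted p of 0.693, 0.74, 0.854 and 0.224. The Ctsl value is as large as several of those that passed, with a wider error.

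**Figure D5:**
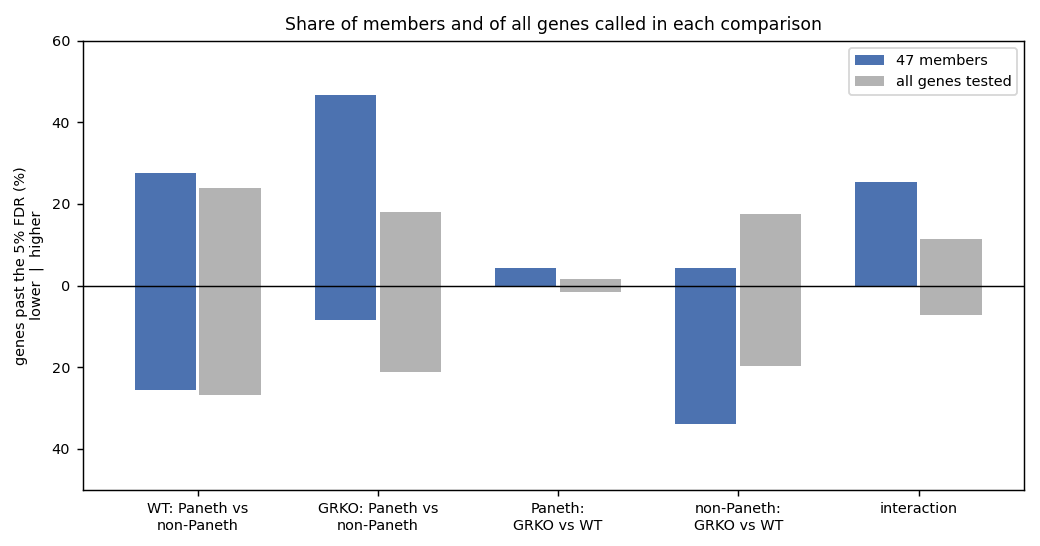
Percent of the 47 members (blue) and of all 13057 genes tested (grey) past an edgeR adjusted p of 0.05 in each comparison, higher above and lower below the zero line. The widest gap in percentage points is among genes higher in GRKO Paneth against GRKO non-Paneth cells (46.8% against 18.0%), and the members also exceed the grey bar among genes lower in GRKO against WT non-Paneth cells (34.0% against 19.8%) and positive interactions (25.5% against 11.5%).

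A wider list of 111 further lysosome and autophagy genes was described in the same way, with 110 in the table and 99 tested. In WT Paneth against WT non-Paneth cells 19 of these were higher and 32 lower, against 24.0% and 26.7% of all genes. In GRKO mice 32 were higher and 12 lower, against 18.0% and 21.2% of all genes. On library totals these counts became 4 and 74 in WT and 6 and 67 in GRKO mice, and the 12 became 7 without GRKO Paneth replicate 1. Lgmn, an asparaginyl protease, measured 52.5, 209 and 139 in WT Paneth against 15.7, 21.1 and 13.7 in WT non-Paneth cells (log2 fold change 2.98 ± 0.416, edgeR adjusted p = 0.000199). Atg9b, the paralog of Atg9a, measured 1.42, 1.73 and 0.946 against 0, 0.349 and 0 (edgeR adjusted p = 0.00203), a direction opposite to that of Atg9a at a far lower level. Cd63 (1.39 ± 0.158) and Cln3 (0.97 ± 0.191) were also higher. The acid lipase Lipa (-2.98 ± 0.25) and the cargo receptor Optn (-2.68 ± 0.163) were lower, as was Mcoln3, at 0.124 to 0.237 in WT Paneth against 0.954 to 1.39 in WT non-Paneth cells (edgeR adjusted p = 0.00275). In GRKO mice Lgmn (3.91 ± 0.429), Ctsf (1.74 ± 0.442) and Cd63 (1.68 ± 0.159) were among the highest, with Atg9b and Mitf, and Ctss (-1.30 ± 0.151), Lipa (-1.03 ± 0.245), Atp6v0e2 (-0.86 ± 0.247) and Mcoln3 were lower.

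Within Paneth cells the genotype moved 0 of the 99 higher and 1 lower, the protease gene Ctss, from 31.0, 39.1 and 31.1 in WT to 21.6, 21.9 and 17.1 in GRKO cells (log2 fold change -0.74 ± 0.154, edgeR adjusted p = 0.043). At an unadjusted p under 0.05 there were 24 higher and 9 lower of the 99, and DESeq2 called 7 higher and 2 lower. Over all genes the edgeR shares at an adjusted p under 0.05 were 1.70% and 1.52%, which compare with the 0 and 1 only. Shares of all genes by the unadjusted p or by DESeq2 are not given here. Without GRKO Paneth replicate 1 edgeR called 9 higher and 2 lower, and without the filter on low counts 12 and 6. The Ctss call was lost without GRKO Paneth replicate 2 or 3, WT Paneth replicate 1 or 2, GRKO non-Paneth replicate 1 or 2 or WT non-Paneth replicate 3, and also without both WT libraries of replicate 2, with only the groups compared, when tested against a fold change of 1.5 and on library totals. In non-Paneth cells 39 fell and 5 rose, against 19.8% and 17.5% of all genes. On library totals 15 fell and 15 rose. With 1 library left out the 5 became 2 without WT non-Paneth replicate 2 or 3, 3 without GRKO non-Paneth replicate 1, 2 or 3 and 9 without WT Paneth replicate 1. Optn fell by 1.75 ± 0.153 on the log2 scale (edgeR adjusted p = 4.42e-06), with no overlap of the groups. Lipa fell from 36.4, 35.2 and 29.5 to 11.3, 8.76 and 7.84 (-1.86 ± 0.22, edgeR adjusted p = 3.34e-05), and the sialidase Neu1 fell by 1.60 ± 0.252 on the same scale (0.000434). Cd68 and Mcoln3, both under 2 TMM-scaled CPM in non-Paneth cells, were lower as well. The 5 that rose were lysosomal hydrolases or a cofactor: Gusb (0.75 ± 0.113), Arsb (0.67 ± 0.151), Sgsh (0.60 ± 0.165), Galc (0.53 ± 0.171) and the ganglioside activator Gm2a (0.53 ± 0.173). The interaction was called positive for 23 and negative for 2 of the 99, against 11.5% and 7.28% of all genes. On library totals the 23 became 11. Negative calls numbered 0 to 2 with 1 library left out, and the count stayed at 2 only without WT Paneth replicate 1. Lipa (1.95 ± 0.35), Optn (1.83 ± 0.221), the endolysosomal cation channel gene Tpcn1 (1.65 ± 0.206), Neu1 (1.64 ± 0.357) and Atp6v0a2 (1.24 ± 0.233) had the largest positive values, and Gm2a (-0.79 ± 0.253) and Gusb (-0.48 ± 0.161) the negative ones.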

How the data were processed

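RNA-seq was measured in 12 libraries: WT and GRKO Paneth and non-Paneth cells, 3 of each. The authors deposited raw counts per Ensembl gene, made from TruSeq stranded single-end reads aligned by STAR 2.7.10a to the build mm39 and counted by its GeneCounts option, with an annotation the study calls gencode v28. The submitters' processing notes also name FastQC, Trimmomatic 0.39 and DESeq2. Groups came from the sample titles, since the genotype field of the labels contradicts them. Symbols and exonic lengths were taken from GENCODE vM39, which matched 54749 of 55414 identifiers. Nothing in the labels says that libraries came from separate mice, so the p-values measure the spread between these libraries, and library totals of 11126297 to 15910292 counts set the precision.

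The quasi-likelihood test of edgeR 4.0.16 (R 4.3.3) was run on the counts with robust fitting, TMM scaling and filterByExpr and with 1 mean for each group over all 12 libraries. P-values were adjusted by Benjamini-Hochberg over the 13057 genes tested, at a 5% false discovery rate. The step was tested on simulated data. Alternatives were RLE size factors, library totals, scaling without Lyz1 and Defa genes, no filter, a tested fold change of 1.5, only the groups compared, a replicate block, DESeq2 1.42.0, each library left out, and both WT libraries of number 2 left out. Deviations from the group means of same-numbered WT Paneth and WT non-Paneth libraries correlated at 0.349, 0.229 and 0.238, so these numbers may pair the WT fractions. In GRKO mice they correlated at 0.0129, 0.262 and 0.465, and between genotypes at -0.098 to 0.166. Correlations between libraries of unlike number were not computed, so these values do not settle the pairing. Xist stood at 127 and 257 CPM in the WT Paneth and non-Paneth libraries of number 2, against at most 0.52 in all others. That likeness covers this number only. The main test used no pairs, also between the WT fractions. The replicate block matched same-numbered libraries in every comparison, and it did so across genotypes where GRKO was compared with WT. All 47 members may be named. Of the wider list, the rule names in each comparison up to 5 genes with the largest change in each direction among those called whose libraries do not overlap, of which 1 gene is not reported here. The members and lists were chosen with earlier results of these data known.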

Additional observations from a re-analysis of the deposited data

Results flagged for a closer look

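For 12 members the effect of GRKO against WT differed between Paneth and non-Paneth cells by the interaction term of the edgeR fit, at a 5% false discovery rate. Each value is the genotype effect in Paneth cells minus that in non-Paneth cells on the log2 scale. It was 2.24 for Atp6v0a1, 1.49 for Atg9a and 1.30 for Npc1. Of the Atg8 and cargo genes, it was 1.04 for Map1lc3a, 0.94 for Sqstm1 and 0.64 for Gabarap. Lamp1 had 0.63, Atp6v1d 0.61, Atp6v1e1 0.61, Ctsd 0.55, Atp6v0c 0.50 and Ctsz 0.46. The values of Atp6v0a1, Atg9a and Npc1 passed in all 20 alternatives, that of Sqstm1 in all but the test against a fold change of 1.5, and those of the other 8 were lost in 3 to 14 of the 20. Enterocyte markers were lower and tuft, proliferation and 4 of 5 stem markers higher in the GRKO than in the WT non-Paneth libraries. The part of these markers in the values was not tested.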

How the results depend on the processing

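The counts of members called moved by at most 1.5 times under RLE size factors, without Lyz1 and Defa genes in the scaling, and with DESeq2, except that DESeq2 called 2 lower in GRKO against WT Paneth cells where edgeR called 0. Scaling to library totals, which moved the median of all genes, had the largest effect: members higher and lower became 5 and 33 between the WT fractions, 5 and 35 between the GRKO fractions, 0 higher for the genotype in Paneth cells, 8 lower for the genotype in non-Paneth cells, and 4 higher and 1 lower in the interaction. On that scale 17 members turned negative between the WT fractions (log2 fold change: Atp6v0b -0.47, Atp6v0d1 -0.63, Atp6v1b2 -0.12, Atp6v1c1 -0.65, Atp6v1f -0.07, Atp6v1g1 -0.48, Atp6v1h -0.57, Atp6ap1 -0.47, Ctsh -0.67, Gaa -0.08, Gla -0.48, Hexa -0.70, Npc2 -0.27, Ulk1 -0.15, Atg5 -0.57, Gabarapl2 -0.47 and Sqstm1 -0.04). Between the GRKO fractions 30 did (Atp6v0a1 -0.90, Atp6v0b -0.29, Atp6v0c -0.74, Atp6v0d1 -0.34, Atp6v1a -0.73, Atp6v1b2 -0.05, Atp6v1c1 -0.72, Atp6v1d -0.72, Atp6v1e1 -0.42, Atp6v1f -0.36, Atp6v1g1 -0.55, Atp6v1h -0.80, Atp6ap1 -0.39, Lamp1 -0.68, Ctsd -0.46, Gaa -0.46, Gla -0.80, Hexa -0.91, Npc2 -0.81, Ulk1 -0.44, Becn1 -0.96, Atg9a -0.84, Atg3 -0.48, Atg5 -0.68, Atg12 -0.96, Atg16l1 -0.91, Atg4b -0.81, Map1lc3b -0.03, Gabarap -0.36 and Gabarapl2 -0.24). Without TMM scaling the members summed to 2776 CPM in WT Paneth, 3001 in GRKO Paneth, 4644 in WT non-Paneth and 4640 in GRKO non-Paneth cells, against means of 3750, 3990, 3834 and 3138 with it.

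Tested against a fold change of 1.5, the counts were 5 higher and 3 lower between the WT fractions, 10 and 0 between the GRKO fractions, 0 higher for the genotype in Paneth cells, 0 higher and 2 lower in non-Paneth cells, and 3 higher in the interaction. With only the groups compared, 1 member was lower between the GRKO fractions and 0 were higher in GRKO against WT Paneth cells. Without the filter on low counts, 1 was lower in GRKO against WT Paneth cells and 6 interactions were positive. Without both WT libraries of number 2, 0 were higher in GRKO against WT cells of either fraction. With the replicate block, 13 were higher and 12 lower between the WT fractions and 22 and 4 between the GRKO fractions, as without it, 0 were higher in GRKO against WT Paneth cells, 3 were higher and 21 lower in GRKO against WT non-Paneth cells, and 13 interactions were positive. The block changed no other count by over 1.5 times.

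With each library left out in turn, 12 to 14 members were higher and 8 to 14 lower between the WT fractions, and 21 to 26 and 0 to 4 between the GRKO fractions. For GRKO against WT, 0 to 3 were higher and 0 to 3 lower in Paneth cells, and 0 to 3 higher and 15 to 18 lower in non-Paneth cells. Positive interactions numbered 6 to 14 and negative ones 0. A sign change of a value that passed no test under either setting was not counted as a reversal, and there were 201 of these. The cause of these changes was not tested, other than that a left-out library lowers the number of samples. Members near 10 TMM-scaled CPM, such as Map1lc3a and Tfeb, rest on the fewest counts.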
